A study of Mus musculus with 3 samples.

Results

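The lysosomal cathepsins followed here are 8 genes, *Ctsa*, *Ctsb*, *Ctsc*, *Ctsd*, *Ctsh*, *Ctsl*, *Ctss* and *Ctsz*, taken by name, and all 8 were among the 27998 genes of each count table. They were measured in CD133+ cells sorted by FACS from the bone marrow of C57BL/6 mice, which the study calls endothelial-like cells (ELCs). Single-cell libraries were made with a 10x Chromium 3′ kit, in which each captured mRNA molecule carries a unique molecular identifier (UMI) and is counted once. There were 3 libraries, labeled young (3 months), old (27 months) and control (3 months), each from 3 pooled mice. The age of the old mice is 18.5 months in the text of the study. No genetic change or treatment is given for any of them. The study describes a first sort, from mice it names C57BL/6N, apart from the sorts of young and old mice, and the number of its cells is that of the control library. Each group is 1 library, so that no difference below has a replicate check, no test was made, and age, library and pool of mice cannot be told apart.

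Cathepsins are the proteases of the lysosome, the acidic compartment in which cells break down proteins. They are made as inactive proenzymes, carried from the Golgi to the lysosome by mannose 6-phosphate receptors, and activated there by cleavage. *Ctsb*, *Ctsc*, *Ctsh*, *Ctsl*, *Ctss* and *Ctsz* encode cysteine proteases, *Ctsd* encodes an aspartic protease and *Ctsa* a serine carboxypeptidase that also protects lysosomal sialidase and galactosidase. In neutrophil precursors cathepsin C has a further task. It removes a short propeptide from the serine proteases of the azurophil granules, neutrophil elastase, proteinase 3 and cathepsin G, which are made at the promyelocyte stage together with myeloperoxidase (*Mpo*). Cathepsin G itself (*Ctsg*) is one of these serine proteases and not a lysosomal cathepsin of the kind followed here.

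The libraries held 8362 to 10869 cells and 81434722 to 138030352 UMIs. After trimming of cells by UMI count and mitochondrial share, clusters of other blood cells were set aside, 1.21% of the kept control cells, 11.0% of the young and 1.08% of the old. This left 9662 control, 6569 young and 9576 old cells with medians of 9594.5, 10363 and 12704 UMIs per cell. In these cells 7 markers of neutrophil precursors (among them *Camp* and *Ltf*) summed to 115448 to 134080 UMIs per 1000000 UMIs (CPM), and 6 endothelial markers to 7.53 to 8.84 CPM, with *Tek* at 0 in all. The levels below are therefore levels in cells rich in neutrophil precursor transcripts. Markers that moved between the libraries included those of maturing neutrophils (5 genes, 599.8, 1011 and 2090 CPM in control, young and old), of monocytes (7 genes, 8.38, 33.5 and 14.0 CPM) and of erythroid cells (8 genes, 39.6, 181 and 11.8 CPM). Between 120 and 161 cell barcodes were shared by a pair of libraries, at most 1.52% of the smaller one.

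Levels are given in CPM with exact 95% Poisson intervals, which cover counting error only. Reads of this kit come from the 3′ end of a transcript, so that levels were not divided by gene length. *Ctsb*, *Ctsd* and *Ctsz* had the highest levels of the 8 cathepsins in all 3 libraries. *Ctsb* stood at 134 (131 to 136) CPM in control, 174 (170 to 177) in young and 151 (149 to 154) in old cells. *Ctsz*, a carboxypeptidase, stood at 139 (137 to 141), 124 (121 to 127) and 131 (129 to 133) CPM, and in this gene the libraries lay closest together. *Ctsd* stood at 123 (121 to 125), 133 (130 to 136) and 238 (235 to 240) CPM, so that the old library was far above both others. *Ctsh*, an aminopeptidase, stood at 73.7 (72.0 to 75.5), 95.9 (93.5 to 98.2) and 61.6 (60.2 to 63.1) CPM, lowest in the old library.

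The other members were much lower. *Ctsa* was at 16.5 (15.6 to 17.3), 22.2 (21.1 to 23.4) and 23.0 (22.1 to 23.9) CPM in control, young and old cells. *Ctsc* was at 10.2 (9.54 to 10.8), 10.2 (9.46 to 11.0) and 18.1 (17.3 to 18.9) CPM, equal in both libraries of 3 months and higher in the old library. *Ctsl* was at 2.54 (2.23 to 2.88), 3.41 (2.99 to 3.88) and 8.32 (7.81 to 8.86) CPM. *Ctss*, which is best known for cutting the invariant chain in antigen-presenting cells, was at 1.07 (0.875 to 1.30), 11.2 (10.4 to 12.0) and 2.20 (1.94 to 2.49) CPM, with the young library alone above 10 CPM. The 8 genes together came to 499 CPM in control, 573 in young and 633 in old cells. *Ctsd* made up 24.6%, 23.2% and 37.5% of these sums.

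The 8 genes lie on 6 chromosomes of the mouse genome (GRCm38), with *Ctsa* and *Ctsz* on chromosome 2 and *Ctsc* and *Ctsd* on chromosome 7. Of all, *Ctsh* alone (chromosome 9, 90054152 to 90076089) shares no stretch with another annotated gene. *Ctsd* (chromosome 7, 142375911 to 142388038) overlaps the gene model *Gm49369* on the same strand, *Ctsl* (chromosome 13, 64359337 to 64370890) overlaps *Gm49230*, and *Ctss* (chromosome 3, 95526786 to 95556403) holds the pseudogene *Hmgb1-ps5*. Whether these 3 were among the genes that reads were counted for was not checked, so that a split of reads between them is not known. *Ctsc* (chromosome 7, 88278085 to 88310888), *Ctsa* (chromosome 2, 164832873 to 164841032), *Ctsb* (chromosome 14, 63122462 to 63145923) and *Ctsz* (chromosome 2, 174427493 to 174439039) overlap genes on the opposite strand, and whether reads were counted by strand is not given in the sources used here.

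Many lysosomal genes carry a sequence called the CLEAR element, which is bound by TFEB and its relatives. Promoters in RefSeq (GRCm38.p6) matched 6 of the 8 members with 7 start sites, and the 250 bases before each start were searched on both strands. The CLEAR core TCACGTGA was found before *Ctsd* and before the second start of *Ctsa*, and it occurs in 0.785% of 32851 promoters. It contains the E-box CACGTG, which occurs in 6.02% of promoters and was also found before *Ctsl* and at another place before *Ctsd*. The ETS core AGGAAGT, of the kind bound by PU.1, was found before *Ctsc* and occurs in 7.69% of promoters. An interferon-stimulated response core (GAAA, any 2 bases, GAAA) was found before *Ctss* and occurs in 2.98% of promoters, and this motif was chosen after the levels of *Ctss* and the sequence had been seen. The stretches are shown because they set the members with different patterns below side by side, each 30 bases from 5′ to 3′ on the strand of the gene, with the motif in capitals (for *Ctsc* the motif lies on the other strand). They lie at chr7:142387908-142387937 for *Ctsd* (minus strand, motif starting 99 bases before the start), chr2:164833743-164833772 for *Ctsa* (plus, 13 bases before), chr7:88277923-88277952 for *Ctsc* (plus, 151 bases before) and chr3:95526755-95526784 for *Ctss* (plus, 21 bases before).
Ctsd: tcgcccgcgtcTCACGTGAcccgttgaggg
Ctsa: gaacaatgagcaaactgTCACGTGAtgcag
Ctsc: gtcactaactaACTTCCTcaggccacctcg
Ctss: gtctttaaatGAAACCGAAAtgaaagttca
A match describes these letters only, and no binding was measured. The starts are those of RefSeq, and the stretches of *Ctsd* and *Ctsa*, like the E-box of *Ctsl*, lie inside the annotated spans given above.

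The first comparison asked how the cathepsins differed between CD133+ cells of old and young mice. A gene was counted as higher or lower when its CPM differed by at least 1.5 times between 2 libraries and reached 10 CPM in either of them. Of the 8 members 7 reached 10 CPM in old or young cells. Higher in old cells were 2, *Ctsc* and *Ctsd*, where 5.05% of 5586 genes were higher, and lower were 2, *Ctsh* and *Ctss*, where 10.2% of these genes were lower. *Ctsc* was 1.77 times and *Ctsd* 1.79 times as high in old as in young cells, a log2 ratio of 0.82 (95% interval 0.70 to 0.95) and 0.84 (0.80 to 0.87). *Ctsh* fell by 0.64 on the log2 scale and *Ctss* by 2.35. The call of *Ctsh* ended, in the same direction, among cells with 8000 to 12000 UMIs (-0.27), when UMIs were averaged over cells without scaling (-0.37) and with ratios centered on their median (-0.55). *Ctsl*, below 10 CPM in both, had a log2 ratio of 1.29. *Ctsa* at 0.05, *Ctsz* at 0.08 and *Ctsb* at -0.20 stayed within the limit. The median log2 ratio of the 8 members was 0.07, beside -0.08 over all genes of 10 CPM.

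Set against the control library, of the same labeled age as the young one, the old library showed the same pair of genes higher. Of 6 members with 10 CPM, 2 were higher (5.36% of 5452 genes) and 0 lower (8.84%). *Ctsc* had a log2 ratio of 0.83 (0.72 to 0.94) and *Ctsd* of 0.95 (0.92 to 0.98). *Ctsa* was closest to the limit at 0.48 (0.39 to 0.57), *Ctsb* stood at 0.18, *Ctsz* at -0.08 and *Ctsh* at -0.26. *Ctsl* at 1.71 (1.51 to 1.92) and *Ctss* at 1.04 (0.70 to 1.38) were below 10 CPM. Both comparisons share the old library, and over them *Ctsc* and *Ctsd* were the 2 of 7 members higher in old cells against both others, a state shared by 3.38% of 5678 genes. Lower against both were 0 members, where 4.86% of genes were lower.

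The control and young libraries, of the same labeled age, were compared as well. They are 1 pair of libraries, so that the spread between libraries of 1 age is not measured. Between control and young cells 0 of 7 members were higher in control (2.47% of 5550 genes) and 1, *Ctss*, was lower (3.71%), by a log2 ratio of -3.38 (-3.70 to -3.08). *Ctsc* at -0.01 (-0.15 to 0.14) and *Ctsd* at -0.12 (-0.16 to -0.08) lay near 0. *Ctsa* at -0.43, *Ctsb* at -0.38, *Ctsh* at -0.38 and *Ctsz* at 0.16 lay within the limit. The difference between these 2 libraries was thus larger than the old to young difference for *Ctsa*, *Ctsb*, *Ctss* and *Ctsz*, and smaller for *Ctsc*, *Ctsd*, *Ctsh* and *Ctsl*. With other blood cells kept in the sums, *Ctsc* had a log2 ratio of -1.82 in control over young cells, larger in size than the -0.93 of old over young cells.

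**Figure D1:**
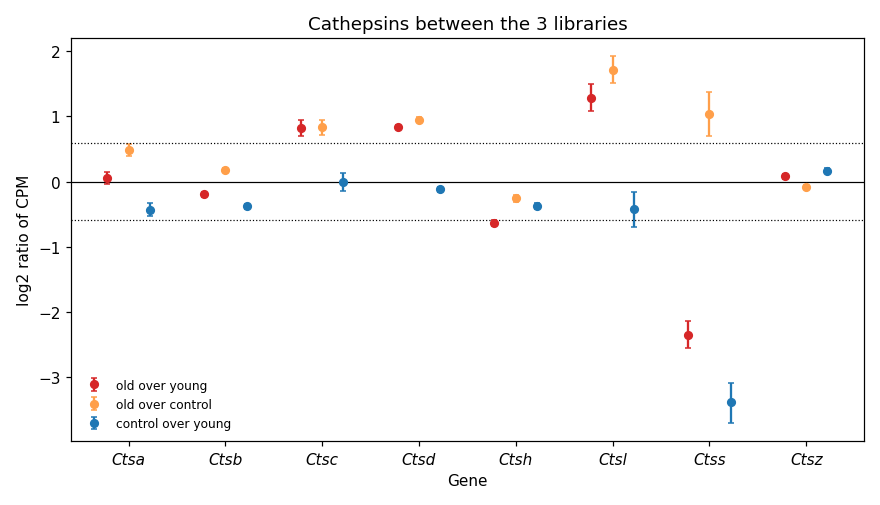
Log2 ratio of the CPM of each cathepsin between libraries, for old over young (red), old over control (orange) and control over young (blue), with exact 95% intervals for counting error and dotted lines at 1.5 times. *Ctsc* and *Ctsd* lie above the upper line in both ratios of the old library and within the lines between control and young, and *Ctss* lies at -2.35 and -3.38 in both ratios over the young library.

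To follow the cathepsins along granule development, cells were grouped by their *Mpo* UMIs per 10000 UMIs into 5 bands, under 3, 3 to under 10, 10 to under 30, 30 to under 100, and 100 and over. The band with most *Mpo* held 290 control, 556 young and 94 old cells, and the band with least held 2705, 2138 and 3950. The serine protease genes *Elane*, *Prtn3*, *Ctsg* and *Prss57* were all higher in the highest than in the lowest band, in each library. Depth moved with the bands too, as the cells of the lowest band had medians of 8837 to 11602.5 UMIs and those of the highest 11497 to 14173. A gene was counted by the same limit between the highest and the lowest band of a library.

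In the control library 4 of 6 members were higher in the highest band (55.2% of 6257 genes were) and 1 was lower (11.8%). In the young library 5 of 7 were higher (56.5% of 6494 genes) and 1 lower (9.35%), and in the old library 5 of 7 higher (56.7% of 6279 genes) and 1 lower (12.3%). More than 55% of genes thus rose with *Mpo* in every library, and the share of higher members was near that background. The lower member was *Ctsh* in each case. The median log2 ratio of the 8 members was 1.45 in control, 0.93 in young and 0.77 in old cells. Over the members of 10 CPM alone it was 1.45, 0.99 and 0.79, beside 0.71, 0.72 and 0.76 over all genes of 10 CPM.

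*Ctsz* had the same slope in the 3 libraries. From the lowest to the highest band it went through 81.6, 93.0, 175, 264 and 372 CPM in control, 68.4, 82.6, 130, 205 and 312 in young, and 84.9, 97.6, 174, 279 and 386 in old cells. The level climbed at every step in all of them. The log2 ratio of the highest over the lowest band was 2.19 in control (2.08 to 2.29), young (2.09 to 2.29) and old cells (2.04 to 2.33).

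*Ctsa* climbed by nearly as much from a lower level, with log2 ratios of 2.01 (1.69 to 2.33), 1.94 (1.70 to 2.18) and 1.88 (1.51 to 2.24) in control, young and old cells. Its levels went from 9.91 to 40.0 CPM in control, from 13.3 to 51.2 in young and from 15.8 to 58.3 in old cells. *Ctsb* climbed less, from 114 to 210, 131 to 260 and 123 to 213 CPM, or 0.89, 0.99 and 0.79 on the log2 scale. These ratios lay at the percentiles 57.2, 63.0 and 51.5 among genes of 10 CPM, not far from the median gene.

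*Ctsh* ran the other way. Its CPM were 91.1, 87.3, 60.3, 33.1 and 30.1 from the lowest to the highest band in control, 112, 111, 96.0, 60.5 and 47.6 in young, and 74.7, 68.7, 44.5, 26.8 and 22.8 in old cells. In every library it was highest where *Mpo* was lowest, and in every band the young library was highest and the old library lowest. The log2 ratio of the highest over the lowest band was -1.60 (-1.91 to -1.30), -1.23 (-1.41 to -1.06) and -1.71 (-2.32 to -1.17).

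*Ctsc* is the member with a task in granule formation. In the young library it went through 5.80, 7.66, 9.96, 13.03 and 29.3 CPM from the lowest to the highest band. In the control library it went through 5.79, 6.90, 16.4, 17.0 and 29.2 CPM. In the old library the levels were 17.0, 18.4, 19.8, 18.0 and 28.7 CPM. The 3 levels thus lay close together in the highest band, while in the lowest band the old library stood far above both others. The intervals of the highest band overlapped but were wide, with log2 ratios of -0.03 (-0.60 to 0.51) in old over young and -0.02 (-0.63 to 0.56) in old over control cells. The log2 ratio of the highest over the lowest band was 2.33 in control (1.94 to 2.72) and young (1.99 to 2.68) while old cells gave 0.75 (0.21 to 1.25), and the highest band of the old library had 94 cells. The median over genes of 10 CPM was 0.76 in old cells, so that *Ctsc* rose there like the median gene. With the other blood cells kept in the sums the young ratio turned to -0.81, and the young level of 5.80 CPM in the lowest band was not above that of monocyte transcripts, as described with the cells set aside.

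*Ctsd* was nearly level with *Mpo* in old cells and climbed in the others. Control cells had 113, 119, 130, 132 and 166 CPM, young cells 115, 119, 150, 159 and 186, and old cells 244, 243, 234, 211 and 239. The log2 ratio was 0.55 (0.41 to 0.68) in control, 0.70 (0.60 to 0.80) in young and -0.03 (-0.21 to 0.14) in old cells. The median over all genes of 10 CPM was 0.71, 0.72 and 0.76, so that *Ctsd* rose by no more than the median gene in any library. Its control ratio lay within the limit.

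*Ctsl* stayed at 1.51 to 7.61 CPM in control and 2.36 to 5.63 in young cells, and in old cells it lay between 7.78 and 9.08 CPM in all bands but the highest, with 18.6 CPM (11.7 to 28.2). *Ctss* showed no steady course. In the young library it lay between 8.93 and 13.8 CPM in every band, in control between 0.857 and 1.95 and in old cells between 0.941 and 4.23.

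**Figure D2:**
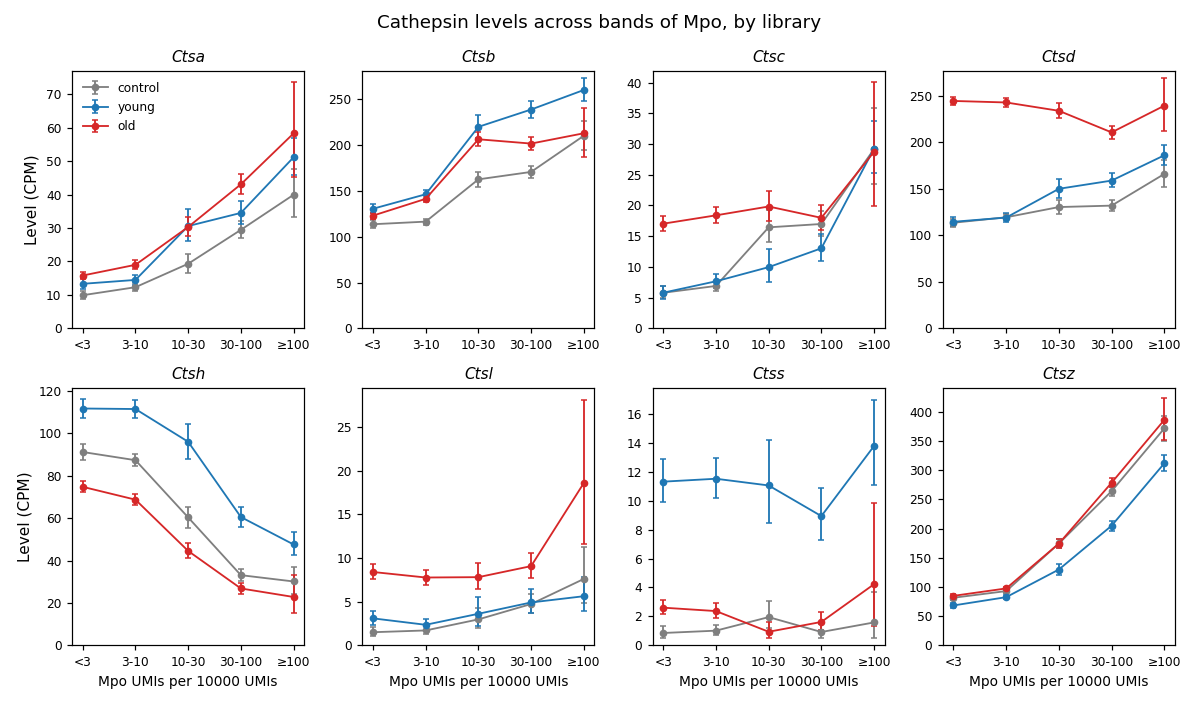
Level of each cathepsin (CPM, linear axis from 0, a scale of its own for each gene) in the 5 bands of *Mpo* UMIs per 10000 UMIs, for the control (gray), young (blue) and old (red) library, with exact 95% Poisson intervals. *Ctsz* climbs alike in the 3 libraries, *Ctsh* falls, and the old library stands apart in *Ctsc* and *Ctsd* on the left, where *Mpo* is low.

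Because the old library had more of its cells in the lowest band (41.2%, beside 28.0% of control and 32.5% of young cells), the libraries were also compared within each band. The share of all genes past 1.5 times within a band was not computed. Calls within bands, here and below, are therefore not set against a background. The log2 ratio of *Ctsc* in old over young cells was 1.55, 1.26, 0.99, 0.47 and -0.03 from the lowest to the highest band. Over control it was 1.56, 1.41, 0.27, 0.08 and -0.02. *Ctsc* was thus higher by the limit in 3 of 5 bands against young and in 2 of 5 against control, all of them among the bands with least *Mpo*. *Ctsd* was higher in old cells in every band, with log2 ratios from 1.09 in the lowest to 0.36 in the highest band over young, and from 1.11 to 0.53 over control. It passed the limit in 3 of 5 bands against young and in 4 of 5 against control.

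*Ctsl* was higher by more than 1.5 times in all 5 bands in both comparisons, though it reached 10 CPM only in the highest band of the old library. Its log2 ratios ran from 0.88 to 1.72 over young and from 0.94 to 2.48 over control. With other blood cells kept in the sums, its log2 ratio of old over young cells in whole libraries was 0.20, within the limit. *Ctsh* was lower than in young cells in all 5 bands (-1.17 to -0.58), past the limit in 4, and lower than in control in all 5 (-0.44 to -0.29), past it in 0. *Ctsz* differed by 0.24 to 0.44 between old and young cells and by 0.00 to 0.08 in size between old and control cells. *Ctsa* lay past the limit against control in 3 bands (0.55 to 0.67 over the 5) and against young in 0.

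**Figure D3:**
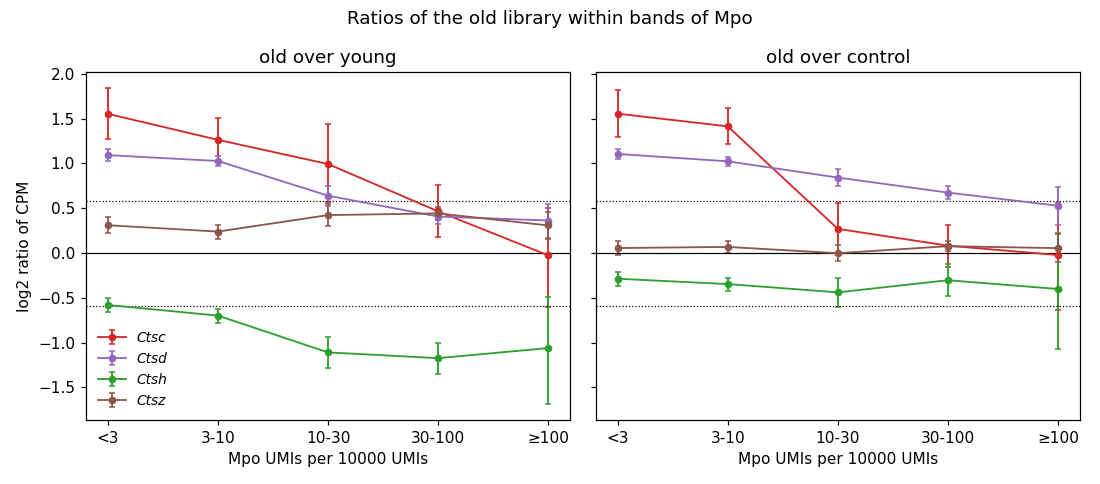
Log2 ratio of CPM in old over young (left) and old over control (right) cells within the 5 bands of *Mpo* UMIs per 10000 UMIs, for *Ctsc* (red), *Ctsd* (purple), *Ctsh* (green) and *Ctsz* (brown), with exact 95% intervals for counting error and dotted lines at 1.5 times. The *Ctsc* ratio goes from 1.55 and 1.56 in the lowest band to -0.03 and -0.02 in the highest, and the *Ctsz* ratio is at most 0.44.

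The lowest band also held cells with transcripts of later maturation. Cells with at least 10 UMIs of *Retnlg*, *Mmp8* and *Mmp9* together per 10000 UMIs made up 9.72% of the lowest band in control, 18.1% in young and 43.0% in old cells. Within 20% of that limit lay 109, 223 and 633 cells. Cells with these transcripts had medians of 4770, 5457 and 9309 UMIs, beside 9209, 10139 and 13163 in cells without them. The part of depth in the differences across this split was not tested. *Ctsc* in cells without these transcripts was 5.61 CPM in control, 5.57 in young and 13.9 in old cells, which gives log2 ratios of 1.33 over young and 1.31 over control. In cells with them it was 8.61, 7.44 and 22.5 CPM. *Ctsd* was at 111, 107 and 201 CPM without and at 153, 168 and 321 CPM with these transcripts, so that the old library was highest on both sides of the split. *Ctsh* was also higher with them than without in each library (113 against 89.7, 137 against 108 and 87.8 against 67.4 CPM), whereas *Ctsz* was lower (60.9 against 83.0, 50.9 against 71.0 and 78.5 against 88.5 CPM). Between both sides of the split the difference passed 1.5 times for *Ctsc*, *Ctsd* and *Ctss* in old cells and for *Ctsd* in young cells. In control cells it did so for *Ctsa* (lower with late transcripts), *Ctsc*, *Ctsl* and *Ctss*, which rest on 2 to 13 UMIs in the cells with them. The minimum of 10 CPM was not applied here, and *Ctss* in old cells was at 4.99 CPM with and 1.26 CPM without late transcripts. The share of all genes past 1.5 times across this split was not computed. These differences are therefore not set against a background.

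The cathepsins were more abundant in some of the clusters set aside than in the cells left, though not in all of them. In 507 monocyte-like cells, 408 of them young, *Ctss* stood at 1151 CPM, *Ctsc* at 611, *Ctsb* at 528, *Ctsz* at 512, *Ctsh* at 491, *Ctsa* at 163 and *Ctsd* at 159 CPM. In 59 dendritic cell-like cells, 53 of them young, *Ctsb* stood at 1742, *Ctsh* at 1123, *Ctsl* at 889, *Ctss* at 805 and *Ctsz* at 704 CPM, and *Ctsc* at 84.4 CPM. In the young library, which held most of the cells set aside, *Ctsd* was at 308 (248 to 379) CPM in 31 basophil and mast cell-like cells and 295 (252 to 343) in 63 NK and T cell-like cells, both above the 133 CPM of the young cells left. It was at 169 (141 to 201) CPM in young erythroid-like and 154 (123 to 192) in young macrophage-like cells. Young dendritic cell-like cells at 128 (89.4 to 178) and B progenitor-like cells at 83.2 (67.8 to 101) CPM were not above the cells left. In monocyte-like cells *Ctsd* was at 288 (249 to 332) CPM in the old library (64 cells). It was at 140 (129 to 153) CPM there in the young library (408 cells) and at 106 (72.2 to 149) in the control library (35 cells). In 158 B progenitor-like cells *Ctss* was at 122 and *Ctsc* at 73.5 CPM. These levels describe clusters and were not tested. *Camp*, a neutrophil granule gene, read 11148 CPM in the monocyte-like cells, and free RNA and doublets as its source were not told apart.

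The cells set aside held 86.8% of the *Ctss* UMIs of the young library (85.9 to 87.7, exact binomial), 78.0% (76.5 to 79.4) of its *Ctsc* and 59.8% (55.6 to 63.8) of its *Ctsl*, with 9.80% of all its UMIs. In control and old libraries they held 1.02% and 0.937% of all UMIs, 74.1% and 71.9% of *Ctss* and 15.2% and 18.2% of *Ctsc*. *Ctsd* lay there in nearly the proportion of all UMIs, 1.07% in control, 11.1% in young and 1.08% in old cells. With these cells included, *Ctsc* was at 11.9 CPM in control, 41.9 in young and 21.9 in old cells, so that the old library was then below the young one, by a log2 ratio of -0.93, while *Ctsd* stayed at 123, 135 and 238 CPM. The direction of *Ctsc* between old and young cells thus turns with the other blood cells, and that of *Ctsd* does not. *Ctsl* was at 8.77 CPM in old and 7.66 in young cells with these cells included. Its log2 ratio of old over young cells was then 0.20, beside 1.29 without them.

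**Figure D4:**
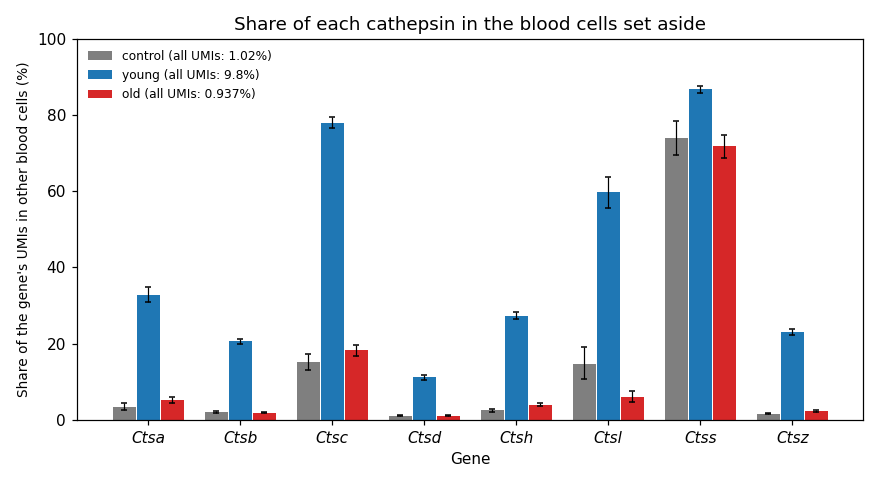
Share of the UMIs of each cathepsin (%) that lay in the clusters of other blood cells, for the control (gray), young (blue) and old (red) library, with exact 95% binomial intervals. In the young library 86.8% of *Ctss* and 78.0% of *Ctsc* lay there with 9.80% of all UMIs, and *Ctsd* stays near the share of all UMIs in each library.

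The level of *Ctss* in the remaining young cells can be read beside this. It was 755 UMIs in 674 cells, of which 60 UMIs were in cells with 3 or more, and its 11.2 CPM were 0.921% of the level in the young monocyte-like cells. The 7 monocyte markers stood at 0.595% to 1.47% of their level in monocyte-like cells, a range that holds the value of *Ctss*. The *Ctss* level of the young library is therefore not above the level of monocyte transcripts found among these cells. The 7 dendritic cell markers summed to 44.3 CPM in the young cells left, beside 12.0 in control and 9.45 in old. Clusters with 1374, 1270, 1202 and 903 young cells, all left in the sums, had interferon-stimulated genes among their top markers. Whether *Ctss* comes from transcripts of other blood cells or from expression in the neutrophil precursors was not tested, nor was the part of these clusters. For *Ctsc* in the lowest *Mpo* band the share of the monocyte-like level was 1.13% in control, 0.960% in young and 2.46% in old cells. The monocyte markers ranged there from 0.0594% to 0.425%, from 0.413% to 1.22% and from 0.0209% to 1.23%. *Ctsc* thus lay above all 7 markers in control and old cells and within their range in young cells, where its level of 5.80 CPM is likewise not above that of monocyte transcripts. *Ctsh*, the other gene lower in old than in young cells, stood at 18.5% of its monocyte-like level in young cells, above all 7 markers. The part of such transcripts in the differences between libraries was not tested.

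Over the 15 values of library and band, the genes whose log2(CPM + 1) ran most like each member were found among 1939 genes of at least 50 CPM. These correlations share libraries, depth and *Mpo* content and are given as descriptions. *Ctsz* ran with *Ssr4*, *Ddost* and *Ndufb5* (Pearson's r of 0.99 each), the first and second of which encode parts of the machinery that brings proteins into the endoplasmic reticulum and glycosylates them. *Ctsa* ran with *Tmem160*, *Ghitm* and *Rpl4* (0.98 to 0.99), and *Ctsb* with *Napsa*, itself an aspartic protease, *Rfc2* and *Mcm7* (0.96 to 0.97). *Ctsd* ran with *Fuca1*, the lysosomal fucosidase, *Gapdh* and *Junb* (0.94 each). *Ctsc* ran with *Rps9* (0.93), *Pdcd6* (0.91) and *Cstb* (0.90), which encodes the cathepsin inhibitor stefin B. *Ctsh* ran with *Lst1*, *Cyfip2* and *Lims1* (0.96 to 0.98), *Ctsl* with *Fth1*, *Rtfdc1* and *Cox7a2l* (0.93 each) and *Ctss* with *Lgals9* and *Psmb9* (0.93 each), among others. Among the members, r was 0.92 for *Ctsa* and *Ctsb*, 0.92 for *Ctsa* and *Ctsz*, 0.89 for *Ctsd* and *Ctsl* and -0.91 for *Ctsh* and *Ctsz*.

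Granule serine proteases, the substrates of cathepsin C, were read beside *Ctsc*. Over whole libraries, of 4 granule serine protease genes with 10 CPM, 0 were higher in old cells against both others, beside 3.38% of genes. Lower against both was 1, *Elane* (4724 CPM, beside 8092 in young and 7169 in control), where 4.86% of all genes were lower. *Prtn3* had log2 ratios of -0.16 over young and -0.31 over control, and *Ctsg* of 0.09 and 0.22. Within the 3 bands with least *Mpo*, where *Ctsc* was higher in old than in young cells, *Ctsg* had log2 ratios of 0.64, 0.72 and 1.24, all past 1.5 times. *Prtn3* had 0.63, 0.63 and 0.41 there, and *Elane* -0.32, -0.12 and -0.22. In the bands with more *Mpo*, where *Ctsc* was within the limit, *Ctsg* was also past 1.5 times, at 1.03 and 0.94. *Prtn3* had 0.20 and 0.21 in them and *Elane* -0.33 and -0.28, so that *Elane* was within the limit over young in every band. Over control, in the 2 bands where *Ctsc* was past the limit, *Ctsg* had 0.29 and 0.39 and *Prtn3* -0.20 and 0.04. *Elane* had -0.75 and -0.30 in these 2 bands, lower by more than 1.5 times in the lowest band. In the other bands, where *Ctsc* was within the limit over control, *Ctsg* had 0.85, 0.72 and 0.66 and *Elane* -0.26, -0.28 and -0.28. The share of all genes past 1.5 times within these bands was not computed. In the highest band the log2 ratio of *Ctsc* in old cells was -0.03 (-0.60 to 0.51) over young and -0.02 (-0.63 to 0.56) over control. *Ctsg* stood there at 7180 CPM in control, 5934 in young and 11349 in old cells. Of the 3 cystatin genes, whose products inhibit cysteine cathepsins, 0 were past the limit between libraries. All 3 were higher in the highest band of each library, as were 55.2%, 56.5% and 56.7% of all genes in control, young and old cells. *Cst7*, which encodes the inhibitor of cathepsins C and L called cystatin F, rose most, from 20.5 to 459 CPM in young cells (log2 ratio 4.49, 4.34 to 4.64), from 26.7 to 501 in control and from 23.1 to 467 in old cells.

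The other parts of the lysosome were read from 7 lists with 79 genes. In old against young cells 3 of 45 genes with 10 CPM were higher (*Fuca1*, *Asah1* and *Atp6v0a1*) and 3 lower (*Arsb*, *Igf2r* and *Gga2*), or 6.67% each, beside 5.05% and 10.2% of all genes. Against control 6 of 45 were higher (among them the same 3, *Gm2a* and *Tmem192*) and 0 lower, or 13.3% higher beside 5.36% of all genes and 0 lower beside 8.84%. *Fuca1* had log2 ratios of 0.68 over young and 0.85 over control, *Asah1*, the acid ceramidase, of 0.71 and 0.63, and *Atp6v0a1*, a subunit of the proton pump that acidifies lysosomes, of 0.95 and 0.94. Among the lower genes *Arsb*, a sulfatase, stood at 14.9 CPM in old and 32.2 in young cells. The mannose 6-phosphate receptor *Igf2r* and the adaptor *Gga2*, both needed to sort lysosomal enzymes, had log2 ratios of -0.77 and -0.84 over young cells.

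Control cells differed from young cells in 0 genes of these lists upward and 6 of 43 downward, *Man2b1*, *Arsb*, *Npc2*, *Psap*, *Gm2a* and *Laptm5*, with log2 ratios from -1.03 to -0.63, or 14.0% beside 3.71% of all genes. Across the *Mpo* bands 28 of 51 genes were higher and 2 lower in the highest band in control, 36 of 53 and 1 in young, and 32 of 56 and 4 in old cells. The higher shares of 54.9%, 67.9% and 57.1% stand beside 55.2%, 56.5% and 56.7% of all genes, so that those of control and old cells are near the background. *Gaa*, the acid glucosidase, rose most among the glycosidases, from 1.10 to 18.7 CPM in control (log2 ratio 4.09), and *M6pr*, the smaller mannose 6-phosphate receptor, rose from 48.9 to 180 CPM. *Tfe3*, of the TFEB family, was lower in the highest band in control (10.1 against 1.90 CPM) and old cells (11.1 against 4.23 CPM). Its log2 ratios had wide intervals, -2.40 (-3.86 to -1.26) and -1.39 (-3.02 to -0.16). *Tfeb* was lower there in old cells as well (11.1 against 4.23 CPM). Of all genes 11.8% in control and 12.3% in old cells were lower in the highest band. Between libraries 0 of the 3 genes of this family reached 10 CPM.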

How the data were processed

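The authors made 10x Chromium 3′ libraries and deposited UMI counts per gene and cell, without normalization. Per the labels' processing notes, STAR, Cell Ranger 2.1.0 and the mm10 build were named. Members and gene lists were chosen with earlier results of these data known. Kept cells had at least 200 genes, at most 20% mitochondrial UMIs, and a UMI total between the percentiles 5 and 95 (control alone, young and old together). Leiden clustering (resolution 1, 15 neighbors, 30 components of 2000 variable genes, genes found in at least 3 cells) left out the 8 members, *Mpo* and *Prom1*. Clusters were set aside when 3 or more markers of a type had 10 CPM and were 10 times above the other cells. Doublets were not removed. Counts were summed per library or band of at least 50 cells. Intervals are exact at 95% (Poisson, Clopper-Pearson, conditional binomial) and cover counting error only; 0 counts were read as up to 3. The analyzed libraries held 67384892 to 118467917 UMIs. With 1 library a group no test was made.

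Of the gene identifiers 27645 of 27998 were found in the GENCODE M21 annotation, from which positions were taken. The text names the 8 members, at most 4 genes past the limit in each list (largest first) and the 3 genes most like each member. It also names *Mpo*, *Elane*, *Prtn3* and *Ctsg*. *Camp*, *M6pr*, *Tfe3* and *Tfeb* were named after their values were seen. Some genes that this rule names are not reported here. The ratios were tested on simulated data with 200 changed genes. These data held counting error only, so that they cannot speak to the spread between libraries or mice. Alternatives changed the cell filter, the other blood cells, depth, scaling, bands, minimum and limit. Scripts used scanpy 1.11.5 with leidenalg 0.10.2, scipy 1.17.1, matplotlib 3.10.9, pandas 2.3.3 and numpy 2.4.6 under Python 3.11.15.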

Additional observations from a re-analysis of the deposited data

Results flagged for a closer look

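*Ctsd* climbed with *Mpo* in the control and young libraries and was nearly level in the old library, where its ratio was just below 0. The log2 ratio of the highest over the lowest *Mpo* band was -0.0305 in old cells, 0.55 in control and 0.70 in young cells. Over all genes of 10 CPM the median log2 ratio between these bands was 0.71 in control, 0.72 in young and 0.76 in old cells. *Ctsd* thus rose by no more than the median gene in any library, and its control ratio lay within the limit. The difference between libraries was not tested, since each group is 1 library, and the interval of the old ratio (-0.21 to 0.14) includes 0. In the old library 94 cells made up the highest band, and 43.0% of its lowest band carried transcripts of maturing neutrophils, in which *Ctsd* was at 321 CPM beside 201 CPM in the others. The cells with these transcripts had a median of 9309 UMIs, beside 13163 in the others. The part of these cells and of depth in the pattern was not tested. Groups of 1 library allow no search for outlying samples.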

How the results depend on the processing

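The text rests on 3 libraries, 1 a group, so that the spread between animals is unknown, and the intervals cover counting error only. No paired analysis was possible because each group is 1 library. With other blood cells kept in the sums, the log2 ratio of *Ctsc* turned to -0.934 in old over young cells and to -0.809 across the *Mpo* bands of the young library. Of 422 single ratios of members under the alternatives 286 stayed within the interval. These 2 were the ones past the limit that changed sign, and 32 others, of members within the limit or below 10 CPM, changed sign too, such as *Ctsl* across the young bands (0.86 to -1.11) and *Ctsa* in old over young cells (0.05 to -0.31). *Ctsd* stayed higher under every alternative, with log2 ratios from 0.68 to 1.11 over young and from 0.82 to 1.28 over control.

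With no cell filter, and with other blood cells kept in the sums, 1 member was higher in old than in young cells, and likewise 1 in old than in both others. Cells outside the filter had no cluster and stayed in the sums. With other blood cells kept, 4 members were lower in control than in young cells and 4 lower in the highest band of the young library, where 2 were lower with such cells set aside cell by cell. In old against young cells 1 member, *Ctss*, was lower among cells with 8000 to 12000 UMIs, with UMIs per cell not scaled, with centered ratios and at a limit of 2 times. At 2 times 0 members were higher in old cells against young, control or both, 3 were higher in the highest band in young and 3 in old cells, and of the lysosome lists 0 genes were higher and 1 was lower in old than in young cells, 0 were higher in old than in control cells, and 1 was lower in control than in young cells. Between the 20% of old cells with most and the 20% with least *Mpo*, and likewise *Elane*, 3 members were higher with most. Doubled band limits left fewer than 50 old cells in the highest band and gave no value there. The share over all genes was not computed under the settings of this paragraph. Its counts show how the calls move and are not set against a background.

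At a minimum of 50 CPM, 0 list genes were lower in old than in young cells, 2 were higher in old than in control cells, 11, 15 and 11 were higher in the highest band in control, young and old cells, and 0, 0 and 1 were lower. How many list genes reached 50 CPM is not given here, nor is the share of all genes higher in old over control cells. These counts are therefore not set against the shares over all genes that follow. At this minimum 6.05% of all genes were higher and 5.07% lower in old over young cells, 5.80% lower in old over control and 2.75% lower in control over young cells. Across bands the shares were then 60.0% and 12.8% in control, 57.9% and 11.2% in young, and 58.8% and 13.9% in old cells, higher and lower. No other member past the limit changed direction, and the other counts of members stayed within 1.5 times. A count of 0 UMIs in the old cells would allow up to 0.0253 CPM.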
